A study of Mus musculus with 14 samples.

Results

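The ionotropic neurotransmitter receptor subunits are the genes whose symbols name a subunit of a GABA type A or rho receptor, a glycine receptor, an AMPA, kainate, NMDA or delta glutamate receptor, a nicotinic acetylcholine receptor or a 5-HT3 serotonin receptor. They were taken by symbol alone, with no measured value used. The rule found 62 of the 56691 genes in the 5xFAD table and 49 of the 20833 genes in the p75 table, and 58 and 45 of these are described here, with all 45 in both tables. Of the 58, 56 are subunit genes and 2, Grin1os and Chrna1os, are transcripts antisense to a subunit gene.

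The libraries were RNA sequencing of mouse dorsal root ganglia, the nodules beside the spinal cord that hold the cell bodies of sensory neurons. The p75 table held 3 libraries with the genotype P75f/f, called floxed here, and 3 with the genotype P75f/f-knockout, called knockout. The study asked which genes had lower expression without the p75 neurotrophin receptor, encoded by Ngfr. The other table held 4 wild-type libraries and 4 libraries of 5xFAD mutants, mice used to model Alzheimer disease by mutant human transgenes under a Thy1 cassette, APP among them. The titles call the floxed samples P75-WT, so those controls carry floxed alleles and are not plain wild type. Knockout columns carry the name P75-Adv in that table, and no label used here explains Adv or says in which cells the receptor was deleted. Age, sex and strain are not given in the labels. Nothing in the labels ties the replicates to separate animals, so p-values measure only how these samples spread, and that spread may be technical.

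Ionotropic receptors are ion channels that open when a transmitter binds. Glutamate, nicotinic and 5-HT3 receptors pass cations and excite a cell, while GABA type A and glycine receptors pass chloride. Sensory neurons keep a high chloride concentration inside, so that GABA depolarizes them, and many of their receptors sit on the central terminals in the spinal cord, whose proteins are made in the ganglion. AMPA and kainate receptors are tetramers, NMDA receptors need the subunit encoded by Grin1, and GABA, glycine, nicotinic and 5-HT3 receptors are pentamers.

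Total counts were 4731119 to 6052690 per library in the p75 table and 13907070 to 19837836 in the 5xFAD table. Counts of the p75 table had a common dispersion of 0.3 and those of the 5xFAD table of 0.023, so the p75 fold changes were the less precise. Ngfr was 129, 124 and 91.1 CPM (counts scaled to the size and composition of each library) in the floxed libraries and 22.2, 24.9 and 37.7 CPM in the knockout libraries, without overlap. The log2 ratio of knockout over floxed was -2.02 (SE 0.35). Its adjusted p was 0.9999 in edgeR's quasi-likelihood test and 0.498 with the replicate number as a block, beside an exact two-sided permutation p of 0.1, the smallest that 3 against 3 libraries allow. The same test on replicates 1 and 2 alone gave an adjusted p of 0.00541, and DESeq2 on all libraries gave 0.0044. In the 5xFAD table Ngfr fell by 0.70 on the log2 scale (SE 0.08, adjusted p 0.00128), from 667 ± 34.7 to 410 ± 38.5 CPM (SD, n = 4). Libraries also stood apart within groups, replicate 3 from replicates 1 and 2 in the p75 table and replicates 3 and 4 from 1 and 2 in the 5xFAD table, and 28.9% and 20.1% of the genes tested differed between these sets. The labels name no batch for either. The sets were taken from these same data, so that genes differ between them follows in part from that choice. The defining neuronal markers Tubb3, Stmn2, Snap25 and Prph were present in every library, at 3.50 CPM or more, beside markers of glia, vessels and connective tissue, so the libraries held more than the sensory neurons the labels name.

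Of the 58 members described, 23 had enough counts to be tested in the 5xFAD table. For the p75 table, 10 of the 45 had. Another 29 and 26 had counts but were too scarce to be tested, and 6 and 9 were at 0 in every library. A count of 0 allowed a level of up to 0.152 to 0.219 CPM per library in the 5xFAD table and 0.515 to 0.656 CPM in the p75 table, at 3 counts. These limits, like all counting errors here, cover counting alone.

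In the wild-type ganglia the receptor transcripts were led by a few subunits, compared as CPM per kilobase of exon. Grik3, a kainate receptor subunit, was at 9.61 ± 3.20 CPM per kb and Gria3, an AMPA receptor subunit, at 8.83 ± 1.44 (SD, n = 4). Chrnb1, the beta subunit of the muscle nicotinic receptor, followed at 7.83 ± 1.52 and Grik5, a kainate subunit that needs partners to form a channel, at 7.12 ± 1.39 CPM per kb. The ranges of mean ± SD of these 4 levels overlapped, and differences between genes measured in the same libraries were not tested. Gria4 came after them at 1.92 ± 1.15, Gabra3 at 1.27 ± 0.343 and Glrb at 1.15 ± 0.238 CPM per kb. The ranges of these 3 overlapped too, and their order was not tested. Every other tested member was at or below 1.05 CPM per kb in wild type. The lengths are the summed exons of each gene in an older annotation, so a gene with a short main transcript is understated.

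**Figure D1:**
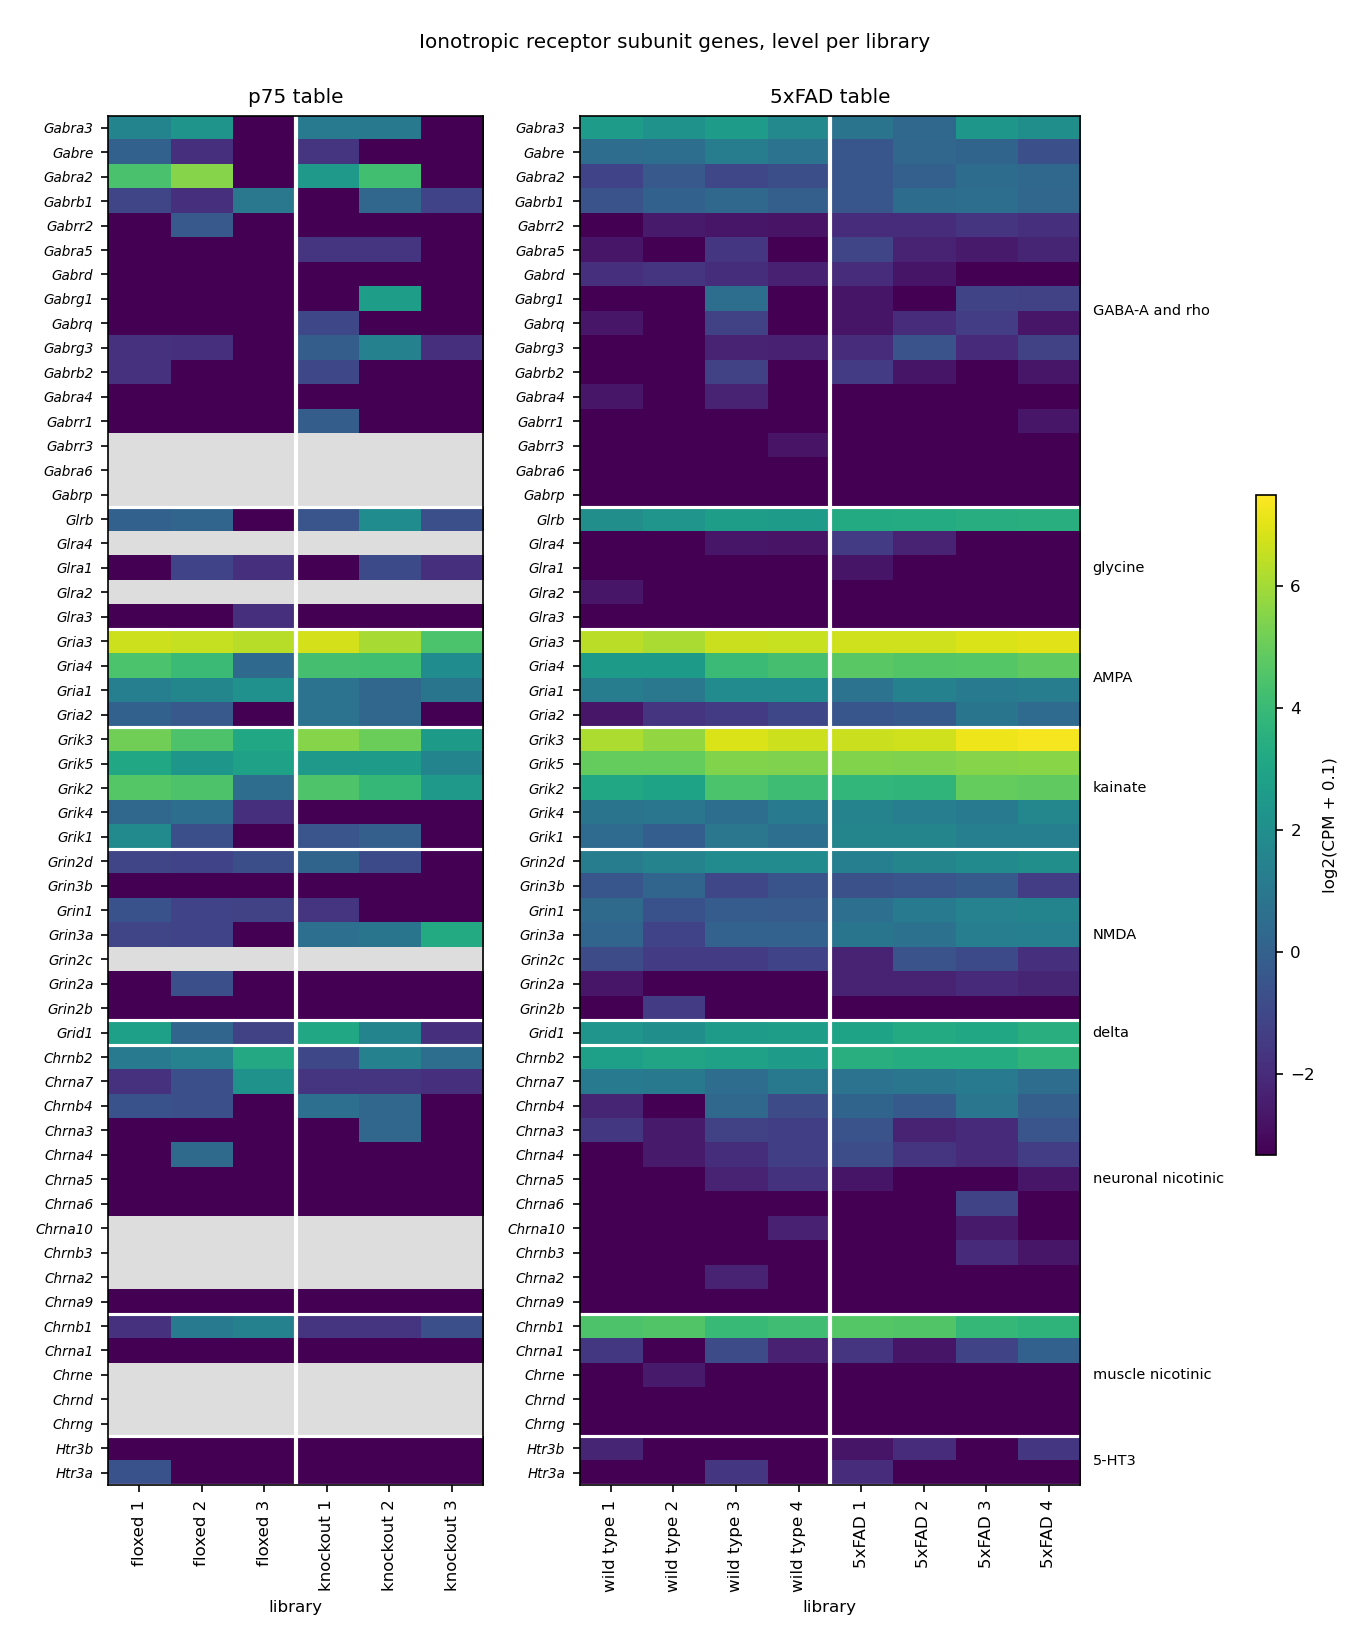
Level of each subunit gene in each library as log2(CPM + 0.1), with genes in rows by receptor class and libraries in columns, the p75 table at left and the 5xFAD table at right. Grey marks genes with no row in the p75 table. Gria3 and Grik3 are the brightest rows in the 5xFAD table, and the replicate 3 columns of the p75 table are darker than their neighbours in many rows.

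The 5xFAD libraries had more of several receptor subunits than the wild-type libraries. Among the 23 members tested, 4 rose and 0 fell at an adjusted p under 0.05, where 3.6% of all 15845 genes tested were called, 2.56% higher and 1.04% lower. The 4 were Glrb, the beta subunit of glycine receptors, Grin1 of NMDA receptors, Grid1 of delta receptors and Chrnb2 of neuronal nicotinic receptors, each from another receptor class. The log2 ratio, the fitted log2 fold change of 5xFAD over wild type, was above 0 for 17 of the 23, against 50.4% of all genes, and below 0 for 6, against 49.6%, and its median was 0.58, against 0.00 over all genes. The groups did not overlap for 10 members with 5xFAD higher, against 6.61% of all genes, and for 1 with 5xFAD lower, against 4.47%. DESeq2 called 8, all higher, against 4.11% of all genes. With the replicate number as a block 11 of the 23 rose and 0 fell, against 6.63% and 3.6% of all genes, and these added Gria2, Gria3, Grik1, Grik2, Grik3, Grik5 and Grin3a to the 4. Fewer cells of a type and less RNA per cell cannot be told apart in these bulk libraries, nor can more of either.

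By class, the summed CPM of the AMPA subunits was 102 ± 21.8 in wild type and 144 ± 13.4 in 5xFAD (SD, n = 4), and that of the kainate subunits 140 ± 42.6 and 201 ± 43.2. The neuronal nicotinic sum was 9.79 ± 0.539 and 14.9 ± 1.37 CPM and the glycine sum 5.39 ± 1.11 and 10.6 ± 0.581 CPM. In both of these classes, and for AMPA, the libraries of the groups did not overlap. The NMDA sum was 5.84 ± 0.462 and 8.49 ± 1.68 CPM and the muscle nicotinic sum 20.03 ± 3.73 and 19.7 ± 5.83 CPM. The NMDA groups were apart by a narrow margin, at 6.34 CPM or less against 6.39 CPM or more. The muscle nicotinic sums overlapped between the groups, as did the kainate sums.

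The count of 4 rested on all 8 libraries. It was 2 without 5xFAD replicate 1, 2 or 3 in turn and 1 without 5xFAD replicate 4. It was 1 without wild-type replicate 1 or 3 and 2 without wild-type replicate 2 or 4. Glrb was called in all 8 of these fits, and the calls over all genes ranged from 237 to 516.

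Markers of neurons moved with these subunits. Of 12 pan-neuronal markers, 10 rose, with a median log2 ratio of 1.35, and their summed level was 570 to 727 CPM in wild type and 1080 to 1156 CPM in 5xFAD. Stmn2, a microtubule regulator of neurons, rose by 1.34 (SE 0.14, adjusted p 0.00179) and Tubb3, a neuronal tubulin, by 0.65 (SE 0.07, adjusted p 0.000895), both on the log2 scale. Schwann cell markers summed to 936 to 2291 CPM in wild type and 2275 to 3606 CPM in 5xFAD, with 0 of 6 called and 4 higher with the block. The summed levels of neuron subtype markers did not share 1 direction, while 0 of these markers were called lower, with or without the block. Of the nonpeptidergic nociceptor markers, both tested rose, with sums of 47.1 to 80.9 CPM in wild type and 130 to 167 CPM in 5xFAD, and of the peptidergic markers Calca rose, a call lost with the block (adjusted p 0.0783). The proprioceptor and large myelinated list summed to 3558 to 5537 CPM in wild type and 562 to 3230 CPM in 5xFAD, almost all of it Spp1, which was not called (adjusted p 0.304), while Nefh of that list rose by 1.48 (adjusted p 0.0166, and 0.0593 with the block). Endothelial markers summed to 642 to 862 CPM and 400 to 662 CPM, with 0 of 5 called and 3 lower with the block.

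The 11 markers of spinal cord and brain cells summed to 6.53 to 25.2 CPM in wild type and 8.53 to 29.6 CPM in 5xFAD. Most of that was Gfap, which glia of peripheral nerve also express, at 3.09 to 22.3 CPM and 6.95 to 27.8 CPM. Of the 3 tested, 0 were called and Olig1 was lower with the block (adjusted p 0.0208), and Gad1, Slc32a1, Chat and Mog were at 0 in all 8 libraries. The part of any of these cell types in the receptor results was not tested. The skeletal muscle markers summed to 3.65 to 6.21 CPM with 0 of 3 tested called.

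**Figure D2:**
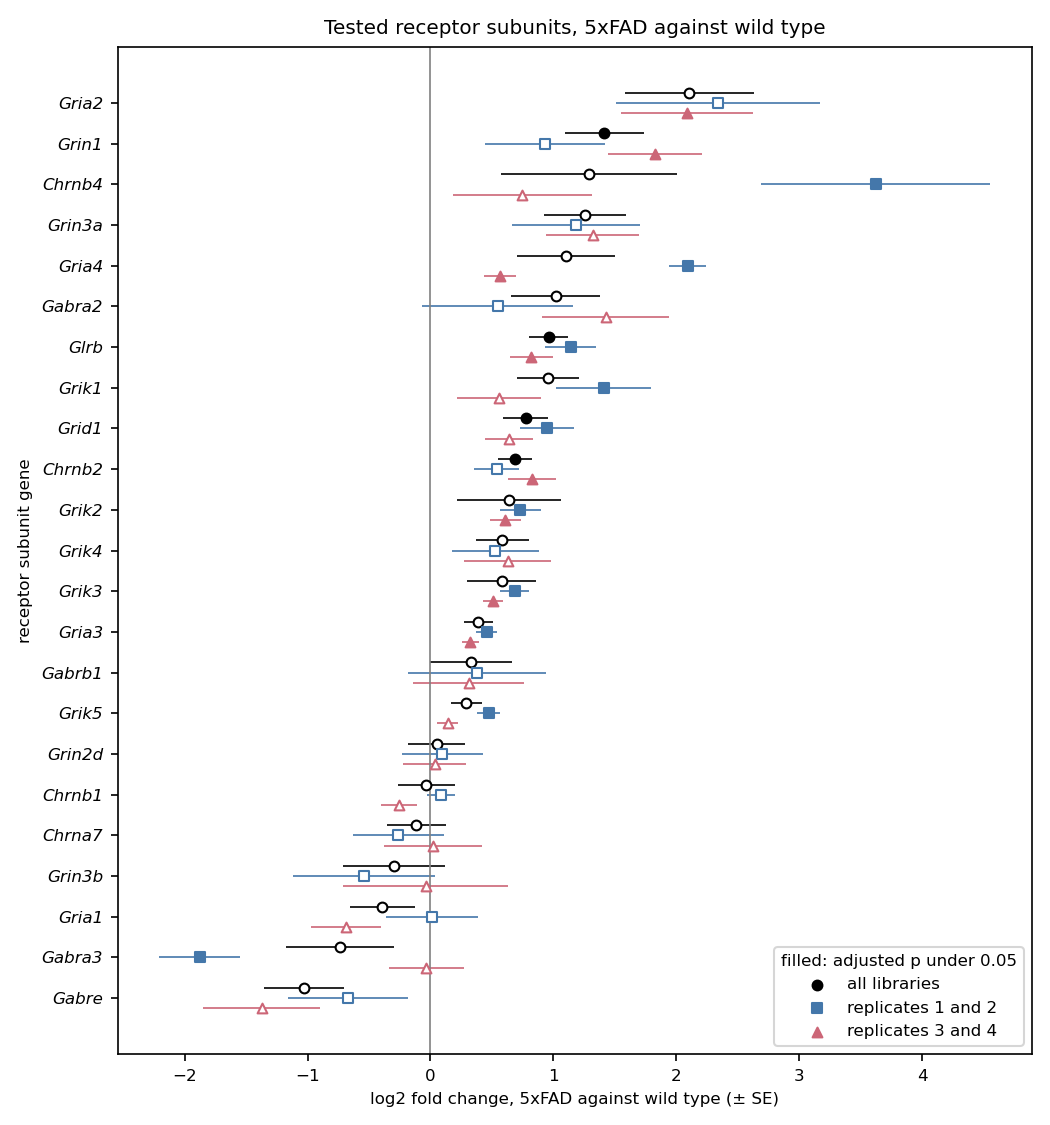
Log2 fold change of the 23 tested subunits in 5xFAD against wild type, with bars of 1 SE, from all libraries (black), from replicates 1 and 2 (blue squares) and from replicates 3 and 4 (red triangles), filled where the adjusted p was under 0.05. Most estimates lie to the right of 0, the sets lie close together for Gria3 and Grik3, and they lie apart for Gria4, Gabra3 and Chrnb4.

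Of the 4 GABA receptor subunits tested and described here, 0 were called over all libraries. Gabra3, an alpha subunit, differed among the 5xFAD libraries. It was 5.95, 4.50, 6.17 and 3.30 CPM in wild type, and 1.72, 1.15, 5.19 and 4.08 CPM in 5xFAD. The first pair of 5xFAD replicates was below all wild-type libraries and the other pair was among them. Over all libraries the log2 ratio was -0.74 (SE 0.44, adjusted p 0.466). In replicates 1 and 2 alone it fell by 1.88 on the log2 scale (SE 0.33, adjusted p 0.000769), and in replicates 3 and 4 the value was -0.03. The difference between the sets was 1.84 (SE 0.47, adjusted p 0.0779), short of the threshold. Gabre, the epsilon subunit, was 1.35, 1.40, 2.30 and 1.62 CPM in wild type and 0.644, 1.10, 1.02 and 0.517 CPM in 5xFAD, lower in every 5xFAD library, with a log2 ratio of -1.03 (SE 0.32) and an adjusted p of 0.139.

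Among the other GABA subunits, Gabra2, an alpha subunit, had a log2 ratio of 1.02 (SE 0.36, adjusted p 0.191), and Gabrb1, a beta subunit, had 0.33 (SE 0.33, adjusted p 0.685). Gabra6 and Gabrp were at 0 in every library.

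Glrb anchors glycine receptors to gephyrin and needs an alpha subunit to form the usual channel. It was 4.01, 4.92, 6.45 and 6.03 CPM in wild type and 9.77, 10.03, 10.7 and 11.3 CPM in 5xFAD. The lowest 5xFAD library was well above the highest wild-type library. Fitted as a log2 ratio this was 0.96 (SE 0.16, adjusted p 0.0100), and Glrb rose within replicates 1 and 2 (1.14, adjusted p 0.00108) and within replicates 3 and 4 (0.82, adjusted p 0.0182). The alpha subunits were nearly absent at this depth. Glra3 had 0 counts in all 8 libraries, Glra1 and Glra2 had 1 count each and Glra4 had 9 counts in all, so Glrb made 93.1% to 100% of the class per kb in every library.

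AMPA receptor transcripts were mainly Gria3, and none of the 4 subunits was called over all libraries by edgeR without the block, while DESeq2 called Gria2 (adjusted p 0.0115) and Gria3 (adjusted p 0.0482). Gria3 was 82.9, 69.0, 101 and 95.9 CPM in wild type and 106, 104, 117 and 129 CPM in 5xFAD. The groups did not overlap, but the margin was small. The log2 ratio was 0.39 (SE 0.12, adjusted p 0.128), and 0.40 (SE 0.06, adjusted p 0.00155) with the block. Gria3 rose within both library sets, by 0.46 (adjusted p 0.00153) and 0.32 (adjusted p 0.0186).

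Gria2 encodes the subunit that, once its transcript is edited, makes AMPA receptors impermeable to calcium. It was scarce, at 0.0589, 0.211, 0.280 and 0.406 CPM in wild type and 0.644, 0.731, 1.75 and 1.26 CPM in 5xFAD. These are 1 to 8 counts and 12 to 24 counts per library, and no libraries overlapped. That is a log2 ratio of 2.11 (SE 0.52, adjusted p 0.0583), and 2.18 (SE 0.46, adjusted p 0.0113) with the block. Without a filter on low counts edgeR called Gria2 as well (adjusted p 0.0198). Gria2 was at most 0.69% of the AMPA class per kb in any of the 8 libraries, while Gria3 made 72.0% to 86.4% in wild type and 70.5% to 72.8% in 5xFAD.

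Gria4 showed the clearest dependence on the library set. It was 5.89, 5.90, 16.7 and 19.9 CPM in wild type and 26.5, 24.3, 25.1 and 29.1 CPM in 5xFAD. The 5xFAD libraries were alike, and wild-type replicates 1 and 2 were far below wild-type replicates 3 and 4. Over all libraries the log2 fold change was 1.10 (SE 0.40, adjusted p 0.228). It rose by 2.09 (SE 0.15, adjusted p 4.72e-08) in replicates 1 and 2 and by 0.57 (SE 0.13, adjusted p 0.0304) in replicates 3 and 4. The difference between these effects was -1.54 (SE 0.20, adjusted p 0.000559), and Gria4 was the only one of the 23 members for which that difference passed the threshold, against 1.19% of all genes. Gria1 was 1.90 to 3.65 CPM in wild type and 1.66 to 2.61 CPM in 5xFAD, with a log2 ratio of -0.39 (SE 0.26, adjusted p 0.524).

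Of the 5 kainate receptor subunits 0 were called by edgeR without the block, while DESeq2 called Grik1 (adjusted p 0.0189). With the block, Grik1, Grik2, Grik3 and Grik5 rose. Grik3 was 71.8, 53.8, 117 and 102 CPM in wild type and 99.8, 104, 149 and 163 CPM in 5xFAD. The groups overlapped over all libraries, yet within each set the 5xFAD libraries were the higher. In log2 terms the ratio was 0.58 (SE 0.28, adjusted p 0.369), and 0.61 (SE 0.10, adjusted p 0.00833) with the block. Grik2, a subunit that forms channels with Grik5, had the same arrangement at lower levels, 8.84, 7.66, 21.3 and 17.6 CPM in wild type and 14.4, 13.3, 30.5 and 29.1 CPM in 5xFAD. Over all libraries the log2 ratio was 0.64 (SE 0.43, adjusted p 0.533), and 0.68 (SE 0.09, adjusted p 0.000815) with the block. Grik5 differed less, by 0.29 (SE 0.13, adjusted p 0.283), and by 0.31 (SE 0.08, adjusted p 0.0282) with the block.

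Grik1 encodes the kainate subunit long associated with C-fibre neurons of the ganglion. It was 1.30, 0.843, 1.85 and 1.47 CPM in wild type and 2.90, 2.92, 2.48 and 2.41 CPM in 5xFAD, with no overlap. Fitted as a log2 ratio this was 0.96 (SE 0.25, adjusted p 0.0748), and 0.99 (SE 0.29, adjusted p 0.0488) with the block. Grik4 was 1.40 to 2.03 CPM in wild type and 2.19 to 3.10 CPM in 5xFAD, also without overlap, with a log2 ratio of 0.58 (SE 0.22, adjusted p 0.208). Neto1, an auxiliary subunit of kainate receptors, had a log2 ratio of 1.80 (SE 0.64, adjusted p 0.196, and 0.0229 with the block), and Neto2, its relative, had 0.29 (SE 0.11, adjusted p 0.206).

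**Figure D3:**
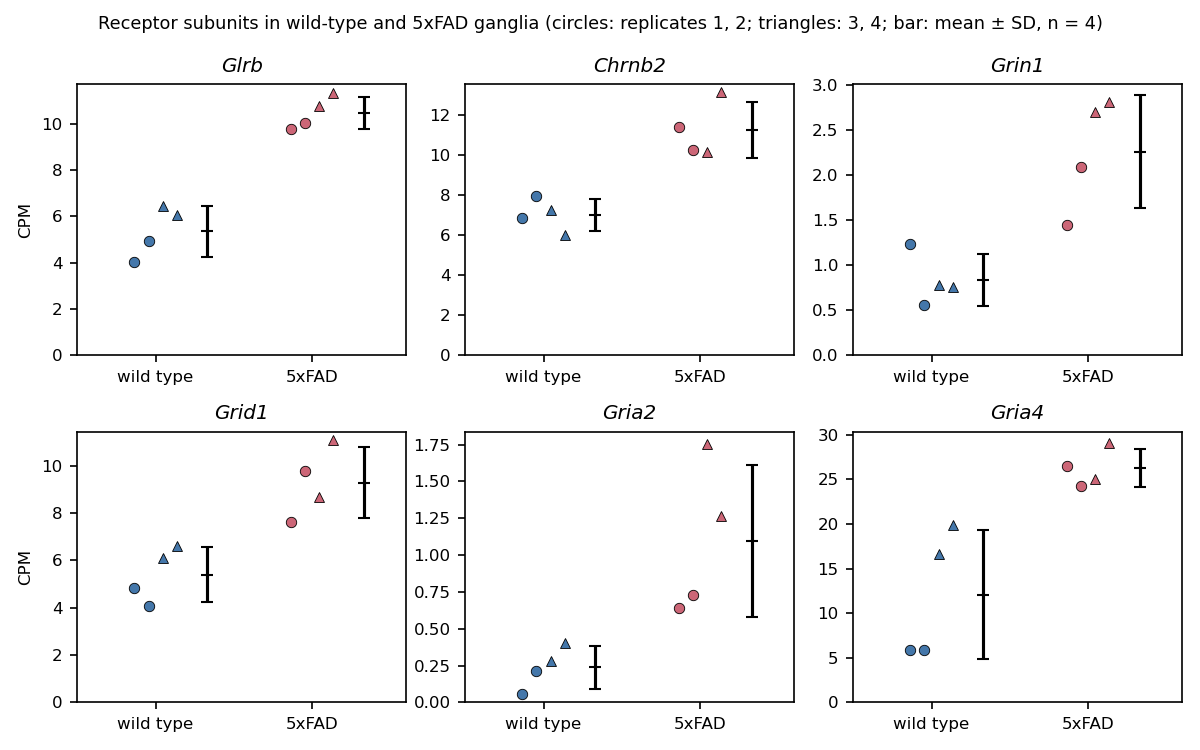
CPM of 6 subunits in each wild-type and 5xFAD library, with circles for replicates 1 and 2, triangles for replicates 3 and 4 and bars for the mean ± SD (n = 4). The groups are apart in every panel, and wild-type replicates 1 and 2 of Gria4, at 5.89 and 5.90 CPM, lie far below replicates 3 and 4.

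Among NMDA receptor subunits, Grin1 rose. It was 1.24, 0.562, 0.785 and 0.761 CPM in wild type and 1.45, 2.09, 2.70 and 2.82 CPM in 5xFAD. The groups did not overlap, though wild-type replicate 1 came close to 5xFAD replicate 1. The log2 ratio was 1.42 (SE 0.32, adjusted p 0.0405). It was 0.93 (adjusted p 0.254) in replicates 1 and 2 and 1.83 (adjusted p 0.0162) in replicates 3 and 4. Whether counting used strand is not given in the sources used here, so reads of Grin1 and of Grin1os, which had 0 to 8 counts per library, cannot be told apart. Grin3a, a subunit that lowers calcium flow through the receptor, was 1.06, 0.351, 0.954 and 0.963 CPM in wild type. In 5xFAD it was 1.77, 1.57, 2.41 and 2.41 CPM, with a log2 ratio of 1.26 (SE 0.33, adjusted p 0.0750), and 1.31 (adjusted p 0.0231) with the block. DESeq2 called Grin3a (adjusted p 0.0147), as did edgeR without a filter on low counts (adjusted p 0.0448).

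Grin2d was the most abundant NMDA subunit per kb and had close levels in the groups. It was 2.24, 2.74, 3.65 and 3.65 CPM in wild type and 2.41, 2.92, 3.43 and 4.02 CPM in 5xFAD, fully overlapping, with a log2 ratio of 0.05 (SE 0.23, adjusted p 0.945). It made 39.9% to 62.2% of the class per kb in wild type and 39.4% to 49.6% in 5xFAD, while Grin1 made 6.55% to 15.1% and 17.6% to 23.8%. Shares of a class sum to 100%, so a larger share of 1 subunit lowers the others. The glutamate-binding subunits Grin2a and Grin2b, abundant in brain, had 9 and 4 counts in all 8 libraries together. Grin2c had 2 to 11 counts per library, and Grin3b had a log2 ratio of -0.30 (SE 0.42, adjusted p 0.784).

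Delta receptors bind cerebellins at synapses and open little to glutamate itself. Grid1 was 4.83, 4.07, 6.11 and 6.59 CPM in wild type and 7.62, 9.77, 8.69 and 11.1 CPM in 5xFAD. All 5xFAD libraries were above all wild-type libraries, and Grid1 rose by 0.78 (SE 0.18, adjusted p 0.0476) on the log2 scale. It was called in replicates 1 and 2 alone (0.95, adjusted p 0.00820) and not in replicates 3 and 4 (0.64, adjusted p 0.0966).

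Chrnb2, the beta subunit of most neuronal nicotinic receptors, was 6.83, 7.94, 7.24 and 5.98 CPM in wild type and 11.4, 10.2, 10.2 and 13.2 CPM in 5xFAD. The groups were well apart. Chrnb2 rose by 0.69 (SE 0.14, adjusted p 0.0233) on the log2 scale, to a fold of 1.61. It was not called in replicates 1 and 2 alone (0.54, adjusted p 0.0614) and was in replicates 3 and 4 (0.82, adjusted p 0.0311). Chrna7, which forms receptors of a single subunit type, was 1.35 to 2.18 CPM in wild type and 1.38 to 2.04 CPM in 5xFAD, with a log2 ratio of -0.11 (SE 0.24, adjusted p 0.864). Chrnb4 was 0.118, 0, 1.12 and 0.456 CPM in wild type and 1.02, 0.731, 1.83 and 0.862 CPM in 5xFAD, and its log2 fold change was 1.29 (SE 0.72, adjusted p 0.425). The alpha subunits that pair with Chrnb2 elsewhere were scarce, with 0 to 9 counts of Chrna4 per library and 1 to 11 of Chrna3.

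Chrnb1 was the only muscle-type nicotinic subunit at a substantial level. It was 22.2, 23.7, 15.4 and 18.0 CPM in wild type and 25.2, 23.9, 14.8 and 13.2 CPM in 5xFAD, overlapping, with a log2 ratio of -0.03 (SE 0.23, adjusted p 0.966). Replicates 3 and 4 were below replicates 1 and 2 in both genotypes. Its partners in muscle were at or near 0. Chrnd and Chrng had 0 counts in all 8 libraries, Chrne had 1 count, and Chrna1 had 0 to 16 counts per library. The 5-HT3 receptor genes Htr3a and Htr3b had 7 and 10 counts in all 8 libraries together and were not tested.

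Of the 56 subunit genes, 42 had an entry in the RefSeq promoter table, and 3 of the 4 that rose were among them, Chrnb2, Glrb and Grin1. Gria2 was added after its values were seen, since it had the largest fold change of the tested members. The 250 bases before the RefSeq start are shown for these 3 and for Gria2, in build GRCm38.p6, which is older than the authors' build. Unlike the 3, Gria2 was short of the threshold in edgeR's test over all libraries (adjusted p 0.0583). Each is read 5′ to 3′ toward the start, and capitals mark matches on either strand to 6 short motifs.
Chrnb2 chr3:89764633-89764882 minus strand: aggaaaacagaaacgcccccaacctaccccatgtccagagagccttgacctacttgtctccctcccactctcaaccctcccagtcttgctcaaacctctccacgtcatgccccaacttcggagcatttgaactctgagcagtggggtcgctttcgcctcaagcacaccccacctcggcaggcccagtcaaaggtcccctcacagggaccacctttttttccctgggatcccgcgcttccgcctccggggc
Glrb chr3:80913661-80913910 minus strand: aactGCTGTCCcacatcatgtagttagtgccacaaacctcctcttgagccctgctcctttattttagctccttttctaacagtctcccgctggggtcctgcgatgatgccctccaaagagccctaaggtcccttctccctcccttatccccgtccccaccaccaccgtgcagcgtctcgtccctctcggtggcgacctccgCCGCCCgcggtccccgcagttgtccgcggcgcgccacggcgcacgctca
Gria2 chr3:80802836-80803085 minus strand: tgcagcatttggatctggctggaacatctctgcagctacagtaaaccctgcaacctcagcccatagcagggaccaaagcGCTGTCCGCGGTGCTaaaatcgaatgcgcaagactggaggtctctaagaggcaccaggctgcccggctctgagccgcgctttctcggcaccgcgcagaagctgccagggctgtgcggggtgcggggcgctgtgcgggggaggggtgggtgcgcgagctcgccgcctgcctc
Grin1 chr2:25319188-25319437 minus strand: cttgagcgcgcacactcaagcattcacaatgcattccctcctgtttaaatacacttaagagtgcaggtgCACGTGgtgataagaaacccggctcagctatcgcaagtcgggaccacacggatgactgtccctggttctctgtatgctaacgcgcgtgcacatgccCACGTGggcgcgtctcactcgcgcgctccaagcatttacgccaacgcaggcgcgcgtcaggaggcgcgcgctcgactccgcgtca
Base -1 is the base before the start. The capitals in Gria2 are the core of RE1, the element bound by the repressor REST, from -170 to -157, overlapped by its right end GGACAGC from -171 to -165. The core was found in 0.0457% of all 32851 windows of this length and in 1 of the 42 members, and the right end in 5.28% of windows and 3 members. In Glrb the capitals are the right end from -246 to -240 and a GC box GGGCGG from -49 to -44, a motif in 32.7% of windows and 19 members. In Grin1 they are an E-box CACGTG from -181 to -176 and from -85 to -80, a motif in 6.02% of windows and 2 members. Chrnb2 held none of these, and a TATA motif TATAAA was in 5 members against 12.4% of windows, while the CRE TGACGTCA was in 0 members against 1.55%. The 4 windows had GC contents of 58.8% to 64.8%, against a median of 52.4%, and 10 to 27 CpG dinucleotides, against a median of 6. A match describes the letters only, and binding was not measured.

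The library sets of the 5xFAD table were tested next, since they crossed the genotypes. The sets were taken from these same data, so differences between them are a description and not a separate result. Replicates 3 and 4 differed from 1 and 2 in 5 of the 23 members, close to the 20.1% of all genes. Of these, 4 were higher, against 10.7%, and Chrnb1 was lower, against 9.44%. Grik2 was higher by 1.16, Grik3 by 0.70, Grik5 by 0.32 and Gria3 by 0.30, and Chrnb1 was lower with -0.63, all on the log2 scale. Within replicates 1 and 2, 9 members rose and 1 fell, against 6.38% and 6.45% of all genes, and within replicates 3 and 4, 8 of 23 rose and 0 fell, against 3.51% and 1.29%. The members that rose in both sets were Glrb, Gria3, Gria4, Grik2 and Grik3, which is 55.6% of the former and 62.5% of the latter. Of these, Glrb was also called over all libraries. With the set as a term in the fit, the same 11 members rose as with the replicate block, against 7.48% of all genes. The block already contains the set, so these fits are not independent of each other.

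**Figure D4:**
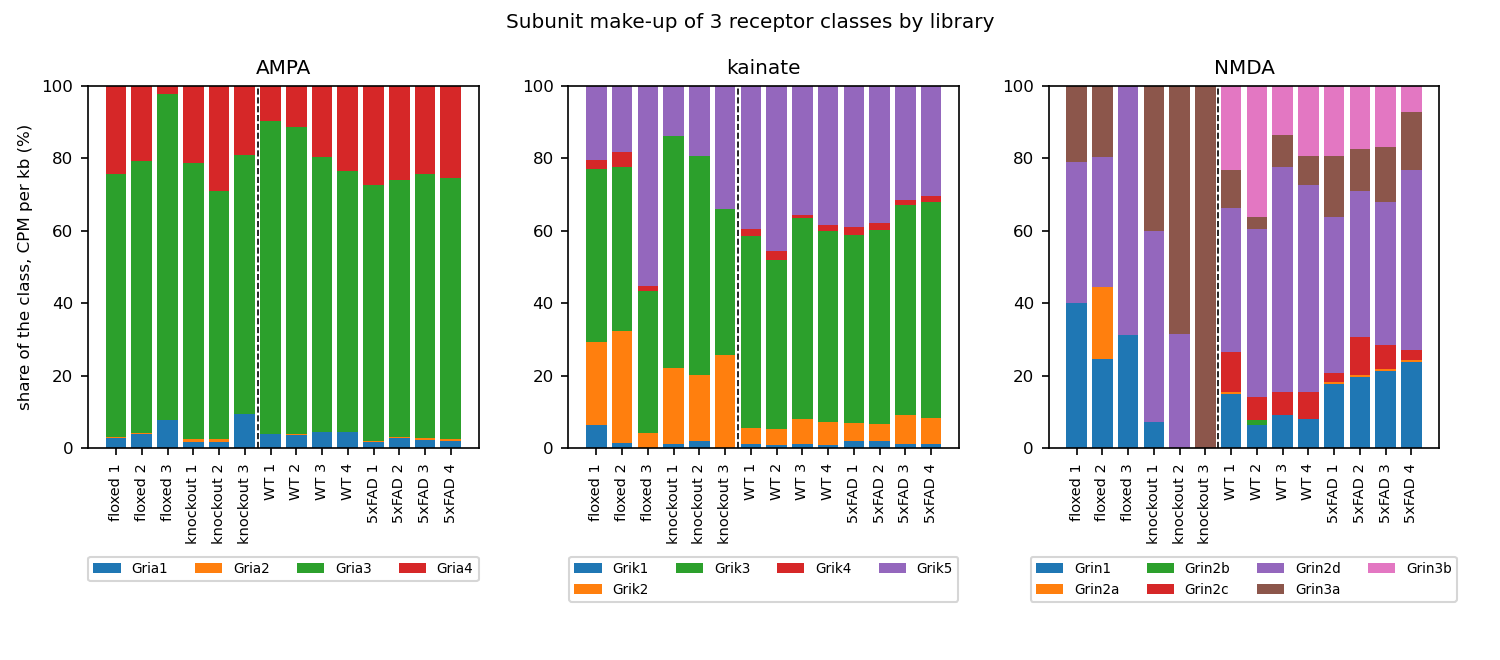
Share of each subunit in the summed CPM per kb of the AMPA, kainate and NMDA classes, 1 bar per library, with the p75 table left of the dashed line and the wild-type (WT) and 5xFAD libraries right of it. Gria3 and Grik3 lead their classes in nearly every library, and Grin1 takes 6.55% to 15.1% of the NMDA class in wild type and 17.6% to 23.8% in 5xFAD.

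Genes that serve these receptors were called in some lists and not in others. No AMPA auxiliary subunit of 6 tested was called, with Porcn at 0.51 (SE 0.14, adjusted p 0.0816), which was called with the block (adjusted p 0.0434). Of 15 scaffolds and organisers of glutamate receptors, 3 rose, namely Grip1 by 1.36 (adjusted p 0.00221) and Grip2 by 1.45 (adjusted p 0.0348), which bind AMPA subunits, and Homer2 by 0.73 (adjusted p 0.0328). Of 11 anchoring and traffic genes of GABA and glycine receptors, Lhfpl4, a partner of GABA receptors that hold the gamma subunit, rose by 0.93 (adjusted p 0.00524) and Iqsec3, a gephyrin partner, by 1.45 (adjusted p 0.00618). With the block Nlgn2, an adhesion protein of inhibitory synapses, was called too, with a log2 ratio of 0.28 (adjusted p 0.0187). Gphn itself, which encodes gephyrin, had a log2 ratio of 0.01. Of 4 nicotinic chaperones and Ly6 proteins, Ric3, a chaperone, rose by 0.42 (adjusted p 0.0150) and Lynx1, a toxin-like modulator, by 0.45 (adjusted p 0.0216). Ly6e, with a log2 ratio of -0.39 (adjusted p 0.220), was called lower with the block (adjusted p 0.0123).

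All 3 tested metabotropic receptor genes rose, Gabbr2 by 1.61 (adjusted p 0.000895) and Gabbr1 by 0.44 (adjusted p 0.00575), which together form the GABA type B receptor, and Grm7 by 1.49 (adjusted p 0.00241). Of 14 transporters and enzymes, Slc17a6, the vesicular glutamate transporter of most sensory neurons and also a listed neuronal marker, rose by 1.64 (adjusted p 0.00145), and Abat, which breaks down GABA, by 0.57 (adjusted p 0.0248). Slc17a8, another vesicular glutamate transporter, fell by 1.64 (adjusted p 0.00234) and Slc6a9, a glycine transporter of glia, by 0.35 (adjusted p 0.0368). The chloride cotransporters Slc12a2, which loads sensory neurons with chloride, and Slc12a5 had log2 ratios of 0.15 and -0.26 and neither was called. Of 4 muscle endplate organisers 0 were called.

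In the p75 table no receptor subunit was called between knockout and floxed ganglia. Of the 10 tested, 0 were called by edgeR, where 0.0% of 11890 genes were called, and 0 had an unadjusted p under 0.05, against 1.18% of all genes. DESeq2, the replicate block and replicates 1 and 2 alone also called 0 of the 10, against 0.0505%, 0.00841% and 0.0499% of all genes. The log2 fold change was above 0 for 3 and below 0 for 7, against 51.7% and 48.3% of all genes, with a median of -0.49 against 0.02 over all genes. Standard errors ran from 0.54 to 1.69, against 0.12 to 0.72 for the 23 members tested in the 5xFAD table. Of the 12 pan-neuronal markers 0 were called, with a median of -0.07. Peptidergic nociceptor markers summed to 36.9 to 193 CPM in floxed and 4.05 to 17.0 CPM in knockout. The proprioceptor and large myelinated list summed to 307 to 485 CPM and 147 to 256 CPM, also without overlap. Nonpeptidergic sums overlapped, at 15.2 to 28.3 CPM and 4.11 to 39.0 CPM. Calca, which encodes CGRP, was the only listed gene called with the block (adjusted p 0.0115).

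By class, the summed CPM of the AMPA subunits was 109 ± 20.3 in floxed and 83.6 ± 53.8 in knockout (SD, n = 3), and that of the kainate subunits 48.0 ± 28.6 and 48.2 ± 31.2. The neuronal nicotinic sum was 7.16 ± 5.79 and 2.89 ± 1.87 CPM. In these 3 classes the spread within a group was wide and the groups overlapped. The NMDA sum was 1.25 ± 0.370 and 4.85 ± 4.20 CPM. It was 0.858 to 1.59 CPM in floxed and 2.19 to 9.69 CPM in knockout, without overlap. The highest sum was that of knockout replicate 3, all of it Grin3a, and no NMDA subunit passed the filter on low counts there. Without that filter, edgeR gave Grin3a a log2 ratio of 4.04 (SE 1.37, adjusted p 0.9995). The glycine sum was 0.343 to 1.41 CPM in floxed and 0.617 to 4.15 CPM in knockout, the muscle nicotinic sum 0.187 to 2.57 and 0.206 to 0.529 CPM, and 5-HT3 receptors had 3 counts, of Htr3a in floxed replicate 1.

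Gria1 was the only tested member whose groups did not overlap, against 2.99% of all genes with knockout lower and 2.72% with knockout higher. It was 2.44, 3.004 and 4.29 CPM in floxed replicates 1 to 3 and 1.65, 1.09 and 1.76 CPM in knockout replicates 1 to 3. In log2 terms the ratio was -1.10 (SE 0.71, adjusted p 0.9999). Chrnb2 had the smallest unadjusted p of the 10, with a log2 ratio of -1.63 (SE 0.95). It was 2.06, 2.65 and 9.10 CPM in floxed and 0.411, 2.62 and 1.41 CPM in knockout, overlapping and highest in floxed replicate 3, without which the log2 ratio was -0.66. Gria3 was 102, 92.6 and 81.4 CPM in floxed and 111, 68.4 and 21.7 CPM in knockout, where replicate 3 alone was low, and its log2 fold change was -0.45 (SE 0.54).

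Grik5 was 8.81, 5.12 and 7.21 CPM in floxed and 5.76, 6.12 and 2.82 CPM in knockout, with a log2 ratio of -0.53 (SE 0.58). Grik3 was 35.6, 22.3 and 8.93 CPM in floxed and 46.5, 33.2 and 5.82 CPM in knockout, with a log2 ratio of 0.36 (SE 0.76). In each of Gria3, Grik5 and Grik3 the groups overlapped.

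Gabra2 stood out in the p75 table by its range. It had 112, 259 and 0 counts in the floxed libraries and 28, 84 and 0 in the knockout libraries. That is 21.0, 45.8 and 0 CPM against 5.76, 18.4 and 0 CPM, so both replicate 3 libraries held none although the floor was under 0.53 CPM in each. Over all libraries the log2 ratio was -1.47 (SE 1.69), and -1.56 (SE 0.52, unadjusted p 0.0164, adjusted p 1) with the block. It was -0.38 without floxed replicate 2 and -2.94 without knockout replicate 2. In the separately normalized 5xFAD table it was 0.353 to 1.31 CPM in every library.

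Replicate 3 of each p75 group had less of many subunits than replicates 1 and 2. Of 11 members tested for this, 6 were lower and 0 higher, against 14.7% and 14.2% of all genes. Grid1 was lower with -4.05, Gria4 with -3.03, Grik2 with -2.70 and Grik3 with -2.19 on the log2 scale, and Gabra2 and Gabra3 were at 0 in both replicate 3 libraries. Gria4 was 21.7, 16.4 and 1.20 CPM in floxed and 19.8, 18.6 and 3.70 CPM in knockout. The pan-neuronal markers did not share this, with a median log2 difference of 0.01. Their sum was 500 to 794 CPM in floxed and 200 to 1156 CPM in knockout. Satellite glia markers had a median of -1.70, Schwann cell markers -2.95 and fibroblast markers -1.31, while macrophage markers had 0.26 and endothelial markers 0.05. The spinal cord and brain markers summed to 0.172 to 11.997 CPM in floxed and 0.529 to 17.3 CPM in knockout. Gfap, the only tested marker of that list, had 40, 35 and 0 counts in the floxed libraries and 31, 60 and 0 counts in the knockout libraries, so it too was at 0 in both replicate 3 libraries. The part of these cells in the receptor values was not tested.

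**Figure D5:**
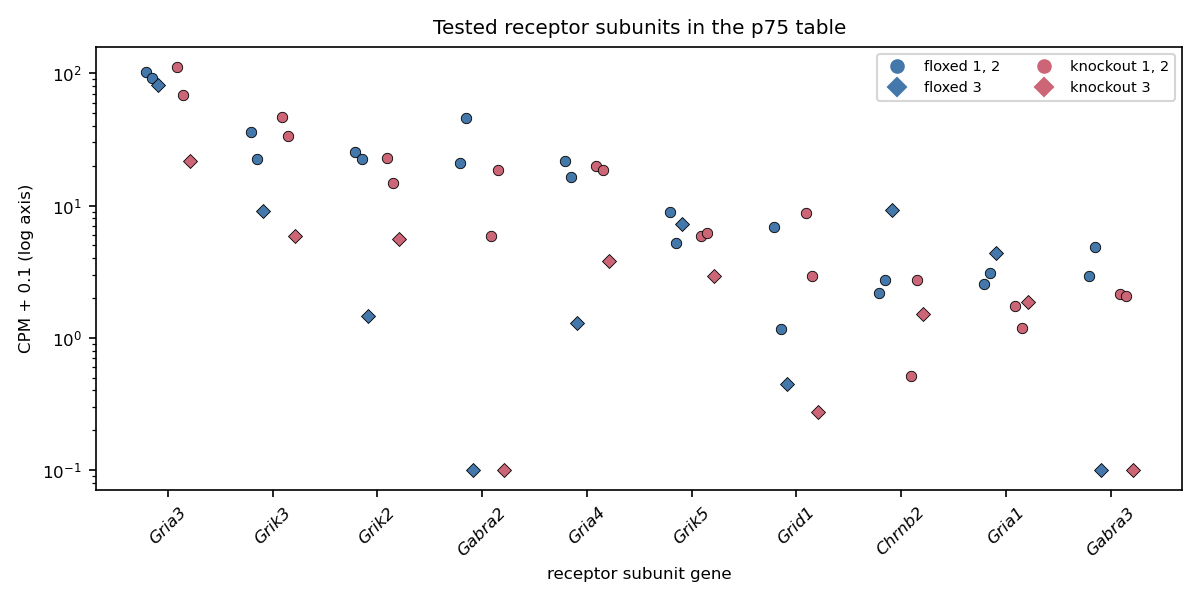
CPM + 0.1 on a log axis for the 10 tested subunits in the p75 table, floxed in blue and knockout in red, with diamonds for replicate 3. The diamonds lie below the circles of their own group for 7 genes in both groups, among them Gabra2 and Gabra3 at 0 CPM, and the colours are intermixed for all genes but Gria1.

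Scarcer members of the p75 table, which the filter on low counts kept out of the test, are given here by counts. Grin3a had 2, 2 and 0 counts in the floxed libraries and 7, 8 and 55 counts in the knockout libraries, without overlap, and knockout replicate 3 held most of them. Grik4 had 6, 8 and 1 counts in floxed and 0 in each knockout library. Glrb had 5, 6 and 0 counts in floxed and 3, 17 and 3 in knockout, and Chrna7 had 1, 3 and 27 counts in floxed and 1 in each knockout library, so floxed replicate 3 again stood apart. Gabrg1 had 30 counts in knockout replicate 2 and 0 in the other 5 libraries.

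Of the 4 members that rose in 5xFAD, 2 could be tested in the p75 table. Chrnb2 had log2 ratios of 0.69 in 5xFAD and -1.63 (SE 0.95) in knockout, and Grid1 of 0.78 and 0.51 (SE 1.35). Glrb and Grin1 were too scarce in the p75 table to pass the filter on low counts. The differences between the comparisons were not tested, since the tables were counted and normalized separately.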

How the data were processed

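Values were the counts the authors deposited, whole numbers of reads per gene in 2 tables that were not normalized. Per the submitters' processing notes the genome was GRCm39. Aligner, counter and strand setting were not given in the sources used here. In 4 p75 libraries the highest count was 65311 to 65469, and in both replicate 3 libraries it was 50722 and 56729, all far above every receptor count. Whether the counting had a ceiling is not stated. How reads of the p75 table spread along transcripts is not stated, so its values per kb are less certain. The 3 columns named P75-Adv were matched to the knockout samples by number and elimination.

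Each table was fitted alone in R 4.3.3 with edgeR 4.0.16 (filterByExpr, TMM, robust glmQLFit, glmQLFTest) over 11890 and 15845 genes, with Benjamini-Hochberg adjustment and a threshold of 0.05. CPM used TMM-scaled library sizes, and per-kb values the exon lengths of GENCODE vM21. Each SE of an edgeR fit was derived from its test, as the size of the log2 fold change over the square root of the F value. DESeq2 1.42.0 was an alternative. The code was tested on simulated data. Permutations of Ngfr used scipy 1.17.1. No library was a copy: at least 24.2% of genes differed beyond counting noise within groups.

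Deviations from group means correlated between libraries of equal replicate number by 0.206, 0.479, 0.588 and 0.173 (5xFAD table, replicates 1 to 4) and by 0.416, 0.371 and 0.631 (p75 table). All passed 0.1, so the block is given where it changes a call. Libraries of unequal number within a set correlated as well. Floxed replicate 1 did so with knockout replicate 2 by 0.432, and floxed replicate 2 with knockout replicate 1 by 0.51. Wild-type replicate 2 did so with 5xFAD replicate 1 by 0.54. These values show the library sets and cannot establish a pairing by replicate number within them. The block and the library sets were taken from these same data, not from the labels, so the calls they add are not independent of that choice.

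Of the members the symbol rule found, 4 are not reported here: they stayed in every fit and are in no count, sum or figure of the members. Members, lists and tests were chosen with earlier results of these data known. Named were all called members, the leading member of each class per kb, the 5 smallest p-values where fewer than 5 members were called, members whose call changed with the block or within a set, and up to 4 genes per related list. Other members named here were chosen after their values were seen.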

Additional observations from a re-analysis of the deposited data

Results flagged for a closer look

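In 34 groups of 4 libraries of the named subunits, a library was picked out where its gap to the nearest of the others, as a share of the group's range, passed Dixon's critical value; chance picks about 1 in 20 groups. Grin3a in wild type was picked for replicate 2, at 0.351 CPM beside 0.954 to 1.06 CPM in the others. Htr3b in wild type was picked for replicate 1, at 0.118 CPM or 2 counts, beside 0 in the other 3 libraries, which is under the limit a count of 0 allows.

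Gria4 was picked because its difference between 5xFAD and wild type was not the same in the library sets: the log2 fold change in replicates 3 and 4 minus that in replicates 1 and 2 was -1.54 (SE 0.20, adjusted p 0.000559). The wild-type libraries, not the 5xFAD libraries, differed between the sets.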

How the results depend on the processing

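With all libraries kept, DESeq2's size factors, a mean of at least 1 CPM and no filter left the counts of called genes and members within 1.5 times. In the 5xFAD table the genes called were 1028 by DESeq2, 1622 with the replicate block, 1866 with the library set as a term and 2053 in replicates 1 and 2 only; leaving out a library gave 237 to 516. The members called were 8, 11, 11 and 10 in that order, 8 in replicates 3 and 4 only, and 1 to 2 with a library left out. In the p75 table the genes called were 6 by DESeq2, 1 with the replicate block, 1 with replicate 3 as a term, 6 in replicates 1 and 2 only and 0 with any library left out. Ngfr there had -2.02 (adjusted p 0.0044) by DESeq2 and -2.43 (adjusted p 0.00541) in replicates 1 and 2 only, and -2.28 to -1.88 with a library left out. Chrnb1 turned to 0.085 in replicates 1 and 2 of the 5xFAD table. With a library left out it ran from -0.19 to 0.11 and Grin2d from -0.080 to 0.17, and in the p75 table Grid1 ran from -0.87 to 2.43, Grik3 from -0.20 to 0.87, Gabra2 from -2.94 to -0.38, Chrnb2 from -2.30 to -0.66 and Gria3 from -1.04 to -0.03. The cause of these shifts was not tested. Among the related and marker lists the block added 16 calls and ended 2, Calca and Nefh, in the 5xFAD table, and added 1, Calca, in the p75 table. Depth limits the members under about 20 counts in all, 21 with counts in the 5xFAD table and 17 in the p75 table. The filter on low counts kept them out of the test.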
